A study of Mus musculus with 10 samples.

Results

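The genes described here are the Arf and Sar small GTPases, Arf1, Arf2, Arf3, Arf4, Arf5, Arf6, Sar1a and Sar1b, 8 of the 53379 genes counted in each library. Their members were taken by gene symbol. Arf2 was chosen by its values in these same libraries, since it stood among the leading genes of the study when appetitive cells were compared with neutral and with aversive cells. Its levels are therefore given as a description with no test, and the other 7 genes were added as its family. The question asked was whether any of them changed together with Arf2.

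RNA was sequenced from pooled hippocampal cells of male mice, 5 weeks old, in which a virus carried ChR2-EYFP under control of the c-Fos promoter, so that cells active while doxycycline was withdrawn became labelled and could be sorted. This promoter marks recently active cells and does not select a cell type. The aversive group (2 libraries, numbered 1 and 3) received 4 foot shocks of 1.5 mA lasting 2 s each, the appetitive group (2 libraries) spent 1 h with a female in a clean home cage according to the sample labels, the neutral group (3 libraries) was placed in the conditioning cage without either stimulus, and the mock group (3 libraries) stayed in the home cage. Each condition was a pool of 8 mice by the labels, while the study's methods describe mock as an untagged control of 2 mice. Separate pools for the libraries of 1 group are not stated, so all p-values measure the spread between these libraries, which may be technical. Neutral libraries were made with another kit and read on another sequencer, so that a difference between neutral and any other group cannot be told apart from that change.

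Total counts ran from 16968588 to 67650693 per library. Levels are given as CPM, the counts scaled to a common library size with TMM factors, and 3 counts, the smallest number treated as detected, were worth 0.0346 to 0.235 CPM. Gene ranks of replicates agreed well among mock libraries (Spearman's rho 0.91 to 0.922) and less well between both aversive (0.637) and both appetitive libraries (0.606). Myelin RNA was abundant: Mbp, the gene of myelin basic protein, took 30.8% and 0.983% of the counts in appetitive 1 and 2, 23.7% and 1.09% in aversive 1 and 3, 3.37% to 22.8% in mock and 0.601% to 1.84% in neutral libraries. Ttr, a marker of choroid plexus, took 2.65% to 13.6% of the counts in neutral libraries and at most 0.971% in the others. Neuronal markers did not move together: Rbfox3 was at 1.17 and 0.105 CPM in the appetitive, 35.0 and 16.0 in the aversive, 3.02 to 7.05 in the mock and 0.173 to 5.28 in the neutral libraries, whereas Snap25 was at 577 and 154 CPM, 422 and 123 CPM, 44.2 to 136 CPM and 15.1 to 24.4 CPM in the same groups.

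Small GTPases of the Arf family switch between a GDP-bound form in the cytosol and a GTP-bound form anchored to membranes, where they recruit vesicle coats. Class I (Arf1, Arf2 and Arf3) and class II (Arf4 and Arf5) proteins act mainly at the Golgi and recruit the COPI coat and clathrin adaptors, the single class III protein Arf6 acts at the plasma membrane and endosomes, and Sar1 proteins start the COPII coat that carries cargo out of the endoplasmic reticulum. In neurons these steps supply membrane and receptors to dendrites and axons, and Arf6 in particular is known for its part in spine formation and endocytosis. Humans lack a functional Arf2 gene, and mice express all of the class I genes.

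Since the paralogs are alike, the coding sequences of the class I genes are shown over the 40 bases in which Arf1 and Arf2 differ least, to make visible how far a 40-base read could tell them apart. Positions 32 to 71 are counted from the A of the start codon, each sequence is given 5′ to 3′ on its own coding strand as derived from the GRCm38 genome and GENCODE M21, and capitals mark bases that differ from Arf2.
Arf2: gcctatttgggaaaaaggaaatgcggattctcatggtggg
Arf1: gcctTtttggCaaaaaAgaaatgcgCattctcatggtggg
Arf3: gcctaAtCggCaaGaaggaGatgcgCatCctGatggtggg

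In this stretch Arf1 differed from Arf2 at 4 and Arf3 at 8 positions. Over the whole coding sequence, identity was 80.6% between Arf1 and Arf2, 80.2% between Arf2 and Arf3, 83.7% between Arf1 and Arf3, 78.6% between Arf4 and Arf5 and 78.6% between Sar1a and Sar1b. Any 40-base coding window of Arf2 held at least 3 differences from Arf3, 5 from Arf4 and from Arf5, 6 from Arf6 and 16 from either Sar1 gene. No 40-base word of any member's transcripts occurred in transcripts of another member. Arf2 shared no such word with any other annotated gene, nor did Sar1a or Sar1b. Of the Arf1 words, 14.5% also occurred in the processed pseudogenes AC127331.2 and Gm19587, so that Arf1 counts may miss reads that mapped to several places.

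Arf2 (ENSMUSG00000062421) lies on chromosome 11 at 103966739-103985337, on the plus strand of GRCm38, and Arf1 (ENSMUSG00000048076) on the same chromosome at 59211412-59228270, on the minus strand. Sar1b (ENSMUSG00000020386) is also on chromosome 11, at 51763687-51791925. Arf3 (ENSMUSG00000051853) lies at chr15:98736634-98763214, Arf4 (ENSMUSG00000021877) at chr14:26638074-26665084, Arf5 (ENSMUSG00000020440) at chr6:28423560-28426602, Arf6 (ENSMUSG00000044147) at chr12:69372150-69373783 and Sar1a (ENSMUSG00000020088) at chr10:61680299-61693297. All of these genes are protein coding. Counting ignored strand, and 637 of 3603 exonic bases of Arf4 overlapped Arf4os or Pde12, 313 of 1907 of Arf5 overlapped Gcc1, and 209 of 1534 of Arf6 overlapped Gm9887, each on the other strand, so reads from these stretches could not be told apart.

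Arf2 was nearly absent from appetitive libraries and present at similar levels in every other library. It had 3 and 8 counts in appetitive 1 and 2, which correspond to 0.235 and 0.419 CPM. Exact Poisson intervals for these counts, which cover counting error only, ran from 0.619 to 8.77 and from 3.45 to 15.8. In the aversive libraries it had 1813 and 2969 counts (90.7 and 59.5 CPM), in mock 1258, 1511 and 4602 counts (50.1, 78.7 and 63.6 CPM), and in neutral 4616, 6372 and 4773 counts (72.8, 73.6 and 61.3 CPM). Both appetitive libraries thus lay below all 8 others, and the other groups overlapped one another.

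Mean Arf2 levels were 64.1 ± 14.3 CPM (SD, n = 3) in mock, 75.1 ± 22.1 (n = 2) in aversive, 69.2 ± 6.87 (n = 3) in neutral and 0.327 ± 0.130 (n = 2) in appetitive libraries. The fitted log2 difference of appetitive libraries was -7.82 from aversive, -7.70 from neutral and -7.59 from mock, and these 3 comparisons share the appetitive libraries. With the 11 appetitive counts pooled, the aversive level was 218-fold higher (95% interval 122 to 436), the neutral level 201-fold (112 to 402) and the mock level 186-fold (104 to 372), where the intervals cover counting error of the appetitive counts only. Between the remaining groups, Arf2 differed by 0.12 on the log2 scale for aversive minus neutral, 0.23 for aversive minus mock and 0.11 for neutral minus mock. In bulk RNA, fewer cells that express a gene and less RNA per cell cannot be told apart.

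**Figure D1:**
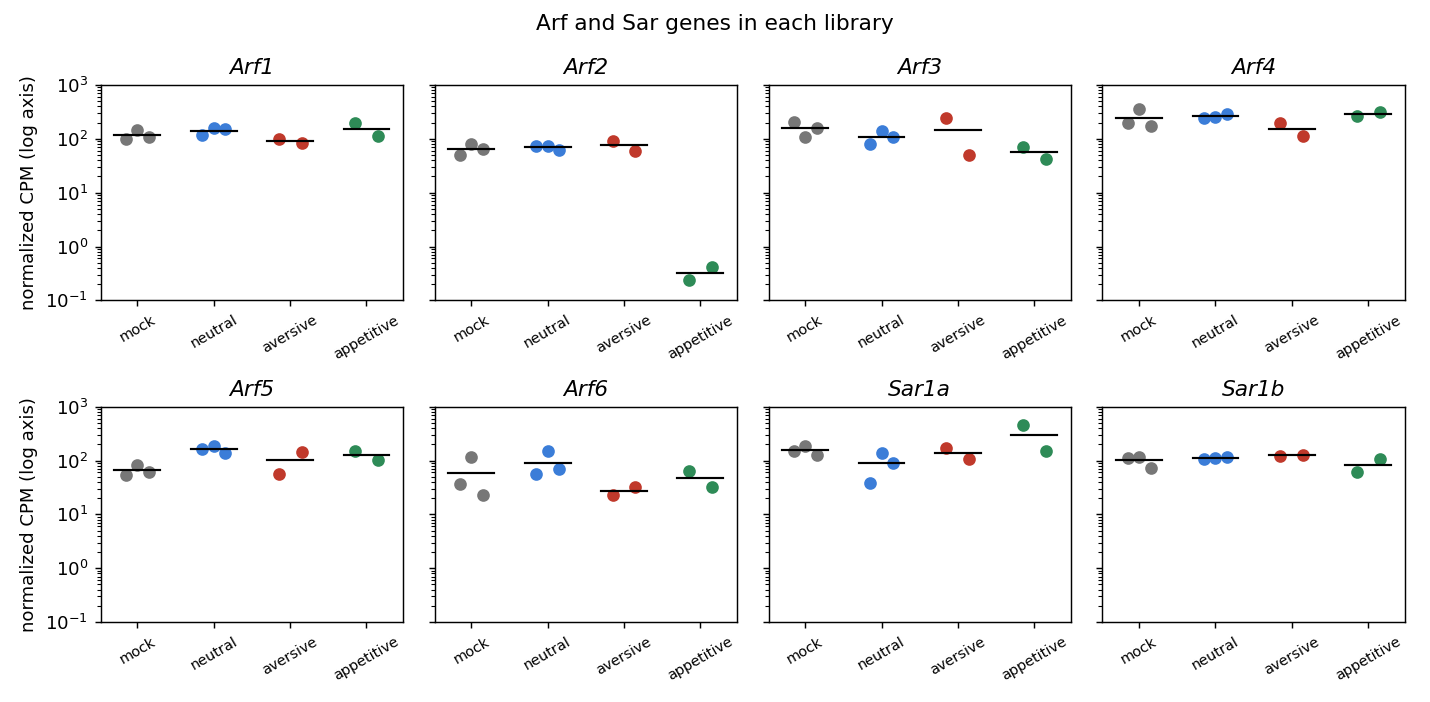
Normalized CPM (log axis) of each of the 8 genes in each of the 10 libraries, by group; each point is a library. Arf2 sits at 0.235 and 0.419 CPM in the appetitive libraries and between 50.1 and 90.7 CPM elsewhere, whereas no other member falls below 22.9 CPM in any library.

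The closest paralogs of Arf2 were well detected in both appetitive libraries. Arf1, the best-studied activator of COPI coat assembly, was at 195 and 112 CPM in the appetitive libraries, at 97.2 and 83.0 CPM in the aversive libraries, at 97.7, 143 and 107 CPM in mock and at 119.9, 157 and 149.6 CPM in neutral libraries. Both appetitive libraries were higher than both aversive ones and overlapped mock and neutral. The difference from aversive was 0.77 on the log2 scale (SE 0.668, 95% interval -0.71 to 2.24) and did not pass the test (edgeR quasi-likelihood, adjusted p = 0.612).

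Arf3, the other class I gene and one that acts at the trans-Golgi network, was at 69.8 and 41.7 CPM in the appetitive libraries, 238 and 50.0 CPM in the aversive libraries, 205, 108 and 158 CPM in mock and 79.8, 142 and 107 CPM in neutral libraries. Its appetitive values lay below all mock and neutral values but overlapped the aversive ones, which differed from each other more than any other pair of replicates of this gene. The fitted differences of appetitive libraries were -1.37 from aversive (SE 0.851, interval -3.24 to 0.50, adjusted p = 0.405), -1.49 from mock (SE 0.804, interval -3.26 to 0.28, adjusted p = 0.262) and -0.97 from neutral (interval -2.70 to 0.76, adjusted p = 0.410), all by edgeR. The difference from aversive was 0.05 without aversive 1, so that this library sets its size and sign.

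The class II genes were measured at high levels in every group. Arf4 was at 270.4 and 317 CPM in the appetitive libraries and at 197 and 110.5 CPM in the aversive libraries, and it reached 195, 357 and 175 CPM in mock and 239, 250.01 and 289 CPM in neutral libraries. The appetitive values lay above the aversive values, with a log2 difference of 0.93 (SE 0.654, interval -0.51 to 2.37) that did not pass the test (edgeR, adjusted p = 0.480). Arf5, its class II partner, was at 153 and 102 CPM in the appetitive libraries, 57.3 and 147 CPM in the aversive libraries, 54.9, 81.5 and 61.8 CPM in mock and 163, 184 and 141 CPM in neutral libraries. Mock values of Arf5 were below all appetitive and all neutral values. The corresponding log2 differences were 0.94 for appetitive minus mock (interval -0.49 to 2.38, edgeR adjusted p = 0.362) and 1.30 for neutral minus mock (SE 0.600, edgeR adjusted p = 0.381).

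Arf6, which acts in endocytic recycling and actin remodelling at the cell surface, had the largest ratio of highest to lowest CPM among the Arf genes other than Arf2. It was at 64.9 and 31.7 CPM in the appetitive libraries, 22.9 and 32.6 CPM in the aversive libraries, 36.7, 118 and 23.2 CPM in mock and 56.7, 148 and 68.7 CPM in neutral libraries. All aversive values were below all neutral values, and the other groups overlapped. The log2 difference was -1.71 for aversive minus neutral (SE 0.974, edgeR adjusted p = 0.356) and 0.80 for appetitive minus aversive (SE 1.01, interval -1.42 to 3.02, edgeR adjusted p = 0.768).

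The Sar1 genes, which start COPII vesicles at the endoplasmic reticulum, had fitted differences of opposite sign between appetitive and aversive libraries, and neither passed the test. Sar1a was at 449 and 149 CPM in the appetitive libraries, 174 and 106 CPM in the aversive libraries, 150.04, 189 and 125 CPM in mock and 37.9, 138 and 89.2 CPM in neutral libraries. Appetitive 1 had the largest value, well above that of the other appetitive library. Both appetitive values lay above all neutral values, with a log2 difference of 1.76 (SE 0.733, interval 0.15 to 3.37, edgeR adjusted p = 0.144), and over the alternatives the adjusted p ran from 0.0639 to 0.626. The Sar1a difference from aversive was 1.10 (SE 0.821, interval -0.71 to 2.91, edgeR adjusted p = 0.520) and was -0.06 without appetitive 1. Sar1b was at 61.5 and 106 CPM in the appetitive libraries, 123 and 129 CPM in the aversive libraries, 110.1, 118 and 72.9 CPM in mock and 107, 112 and 118 CPM in neutral libraries. Both appetitive values of Sar1b lay below both aversive values, with a log2 difference of -0.59 (SE 0.690, interval -2.11 to 0.92, edgeR adjusted p = 0.741).

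**Figure D2:**
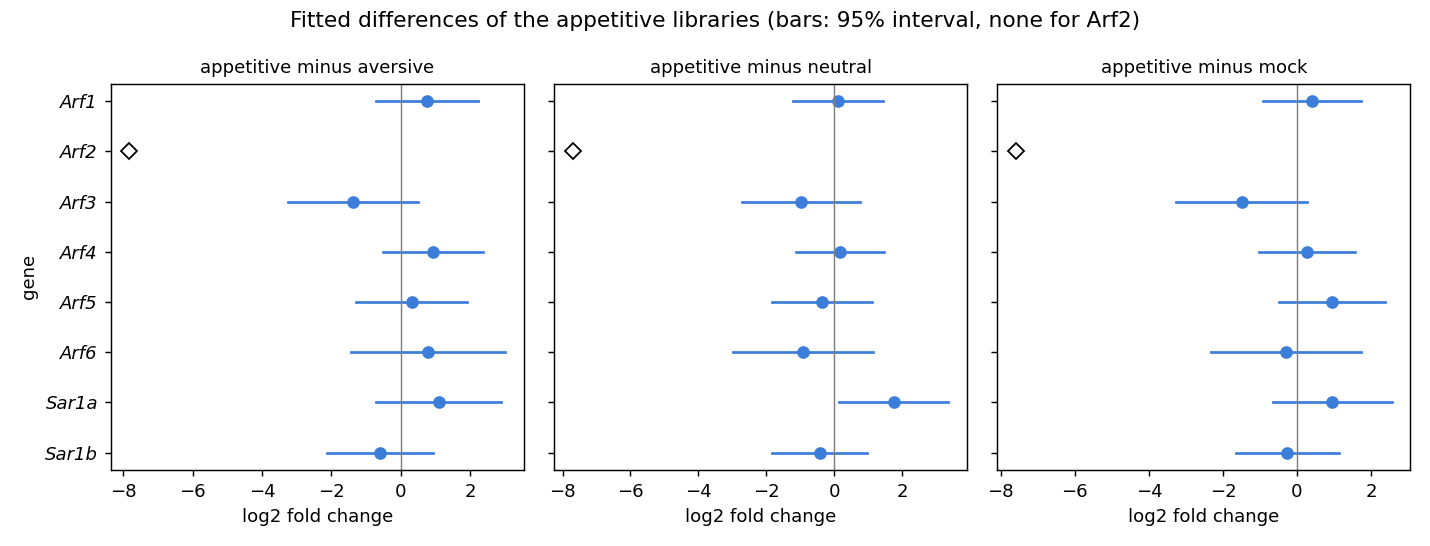
Fitted log2 fold changes of the appetitive libraries against each other group for the 8 genes; bars are 95% intervals from edgeR, with none for Arf2, which was selected on its differences from aversive and neutral. Arf2 lies at -7.82, -7.70 and -7.59, and the 7 other genes lie between -1.49 and 1.76, with intervals from -3.26 to 3.37.

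Of the 7 members other than Arf2, 0 were called at an adjusted p under 0.05 in any comparison, by edgeR or by DESeq2. For appetitive minus aversive, 1.8% of the 19754 tested genes were called, so few or no calls among 7 genes would be seen at the background rate. The shares of all tested genes called were 6.17% for appetitive minus neutral, 1.98% for appetitive minus mock, 0.0861% for neutral minus mock, 0.0405% for aversive minus neutral and 0% for aversive minus mock. In the last comparison 1968 genes had an unadjusted p under 0.05, of which 1768 were lower in aversive libraries, and DESeq2 called 1442 genes. At an unadjusted p under 0.05, the members other than Arf2 numbered 1 in appetitive minus neutral (Sar1a) and 0 in the other comparisons. Of the 19754 tested genes, 5779 passed this limit for appetitive minus neutral, 3941 for appetitive minus aversive and 4696 for appetitive minus mock. The numbers were 3765 for aversive minus neutral, 1968 for aversive minus mock and 2658 for neutral minus mock. The absence of a call does not show equal levels, because intervals for appetitive minus aversive spanned from -3.24 to 3.02 on the log2 scale.

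The members lay on both sides of the median gene. For appetitive minus aversive, the log2 differences of Arf3 (-1.37) and Sar1b (-0.59) were below the median of all tested genes (-0.48) and the other 5 were above it. The median of the 7 members was 0.77 in that comparison, 0.28 for appetitive minus mock (all tested genes -1.45) and -0.35 for appetitive minus neutral (all tested genes -0.91), and Arf3 was below the median gene in each of them. These backgrounds depended on the genes tested. Among the 4661 genes with at least 10 counts in every library, which include the 7 members and not Arf2, the median of the members and of all genes was 0.30 and -0.0045 for appetitive minus aversive, -0.19 and 0.20 for appetitive minus mock and -0.90 and 0.04 for appetitive minus neutral, so that the position of the members against the median gene turned for mock and neutral. Scaling moved all genes together: the median of all genes for appetitive minus aversive was -0.34 with DESeq2 size factors and -0.88 with library size alone. With that shift, the fitted sign turned for Arf5 in appetitive minus aversive and for Arf1 and Arf4 in appetitive minus mock and appetitive minus neutral.

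Compared per length of exon, Arf2 had a small share of the Arf genes. Its share of the summed CPM per kb of the 6 Arf genes was 6.27% to 13.4% in the 8 libraries other than appetitive, and 0.0256% and 0.0623% in the appetitive libraries. In mock, levels per kb were 80.1 ± 19.3 for Sar1b, 67.4 ± 27.7 for Arf4, 55.4 ± 11.4 for Arf1, 41.4 ± 8.64 for Sar1a, 38.6 ± 33.3 for Arf6, 34.7 ± 7.24 for Arf5, 32.5 ± 10.0 for Arf3 and 21.4 ± 4.77 for Arf2 (SD, n = 3), and the ranges of 1 SD around the means of neighbours in this order overlapped. Arf2 was not the lowest in the aversive libraries, where it was at 25.1 ± 7.37 per kb and Arf6 at 18.1 ± 4.48 (n = 2), nor in the neutral libraries, where it was at 23.1 ± 2.29 and Arf3 at 22.7 ± 6.46 (n = 3). In the appetitive libraries the order began with Arf4 (81.6 ± 9.24), Sar1a (80.1 ± 56.7) and Arf1 (73.4 ± 28.1) and ended with Arf6 (31.5 ± 15.3), Arf3 (11.6 ± 4.12) and Arf2 (0.109 ± 0.0435; n = 2). Summed over the 5 Arf genes other than Arf2, levels were 753 and 604 CPM in the appetitive libraries, within the range of 423 to 881 CPM in the remaining libraries.

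**Figure D3:**
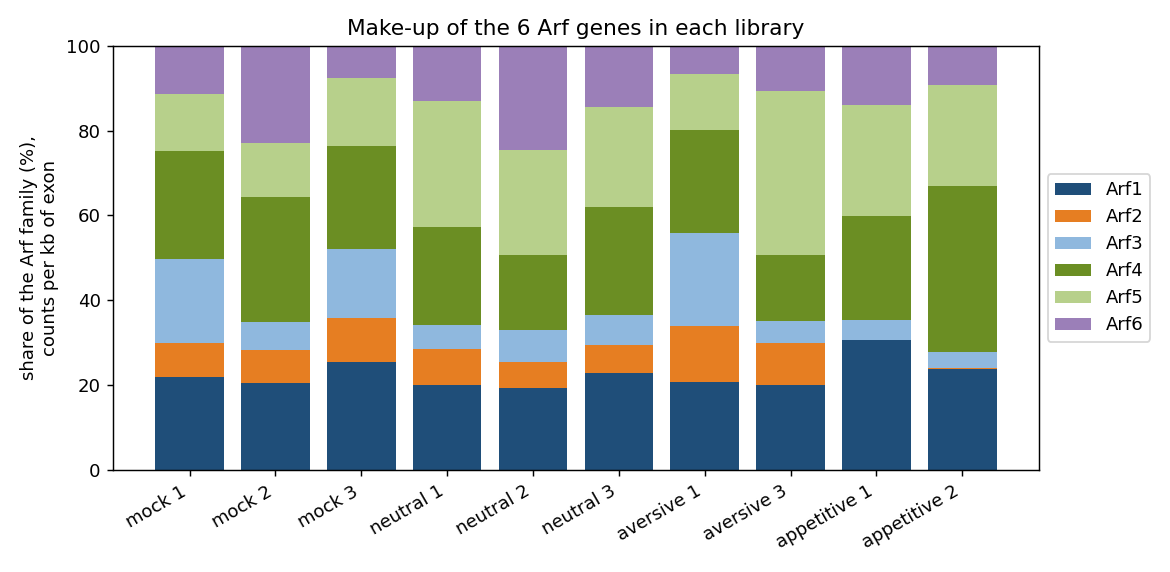
Share (%) of each Arf gene in the summed CPM per kb of exon of the 6 Arf genes, as a stacked bar for each library. The Arf2 segment takes 6.27% to 13.4% in 8 libraries and is too thin to see in both appetitive libraries.

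The ratio of the highest to the lowest CPM over the 10 libraries was 387 for Arf2, with 3 counts in its lowest library, 11.9 for Sar1a, 6.44 for Arf6, 5.72 for Arf3, 3.36 for Arf5, 3.24 for Arf4, 2.35 for Arf1 and 2.10 for Sar1b. By the coefficient of variation of CPM, Arf6 (69.8%) and Sar1a (68.6%) varied more than Arf2 (56.2%) and Arf3 (54.6%), followed by Arf5 (42.5%), Arf4 (30.4%), Arf1 (27.2%) and Sar1b (20.6%). As a description over 10 libraries that share group, depth and kit, Pearson's r of log2 CPM with Arf2 was 0.59 for Arf3, 0.58 for Sar1b, 0.07 for Arf6, -0.21 for Arf5, -0.35 for Arf4, -0.39 for Arf1 and -0.56 for Sar1a. Ranked by this r among all tested genes, Arf3 stood at 4167, Sar1b at 4400 and the remaining members between 13720 (Arf6) and 18732 (Sar1a). Over the 8 libraries other than appetitive, r with Arf2 was between 0.03 (Arf5) and 0.37 (Arf4) for every other member. The highest correlation within the family was between Arf1 and Arf6 (r = 0.75), followed by Arf1 and Arf4 (0.71).

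The 5 tested genes whose pattern over the 10 libraries was most like that of Arf2 were Smyd5 (r = 0.995), Tmem241 (0.995), E2f5 (0.993), B4galt4 (0.993) and Fbxo22 (0.992). Each had between 0 and 4 counts in every appetitive library, so these values mostly restate that both appetitive libraries were near 0. Over the other 8 libraries r with Arf2 was 0.69 for Smyd5, 0.43 for Tmem241, 0.14 for E2f5, 0.41 for B4galt4 and 0.50 for Fbxo22.

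Near-zero levels of otherwise well-detected genes were more frequent in the appetitive libraries than in the others. The appetitive libraries also had the fewest genes with a count, 14144 and 14658, against 16849 to 30899 in the others. With limits chosen after the values were seen (under 1 CPM in both appetitive libraries and at least 20 CPM in each of the 8 others), 48 genes matched, of the 2365 that were at least 20 CPM in those 8 libraries (2.03%). Arf2 was the only member among them, and Pip5k1c was the only gene of the partner lists described below. By the same limits, 1 gene was near 0 in the aversive, 3 in the neutral and 0 in the mock group. Single libraries also had such genes: 224 genes (11.1% of 2021) were near 0 in appetitive 1 alone, 76 (4.15%) in appetitive 2 alone, 32 in aversive 1, 12 in aversive 3, 11 in neutral 1, 1 in mock 1 and 0 in each remaining library. Whether the near-zero level of Arf2 in both appetitive libraries is related to those in single libraries was not tested.

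**Figure D4:**
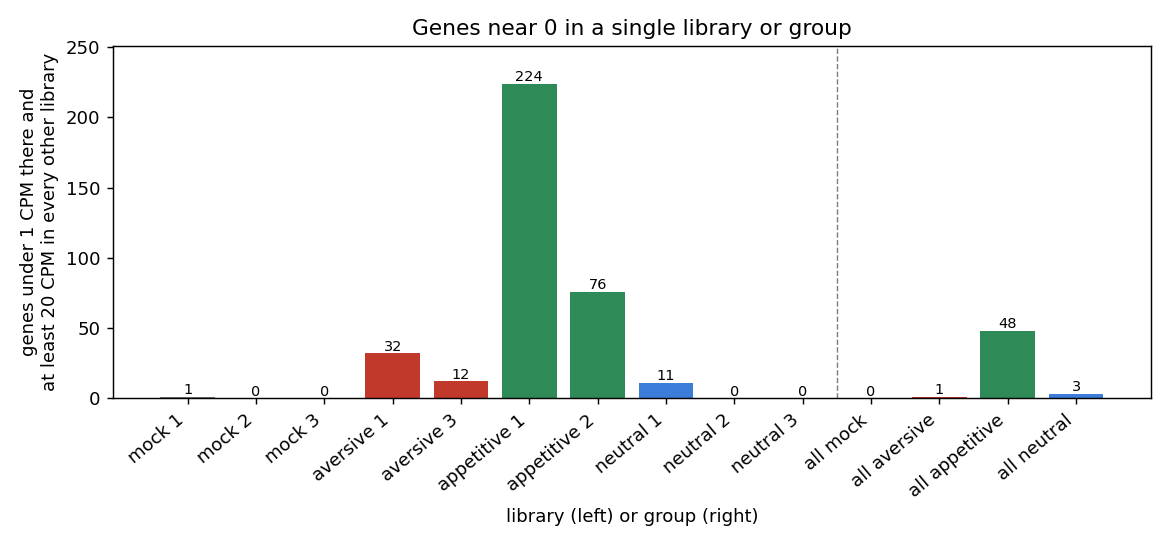
Number of genes under 1 CPM in the named library (left of the dashed line) or in all libraries of the named group (right) and at least 20 CPM in every other library. Appetitive 1 has 224 such genes, appetitive 2 has 76 and both together have 48, more than any other library or group.

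The partners of these GTPases were examined through 97 genes in 7 lists, of which 93 were tested. For appetitive minus aversive, 3 of the 93 were called, all lower (Copb2, Ap1b1 and Pip5k1c), and 0 were higher, against 1.8% of all tested genes. By list, 1 of 9 COPI coat genes, 1 of 9 clathrin adaptor genes and 1 of 5 lipid enzyme genes were lower. None (0) of the 14 exchange factors, which load Arf with GTP, of the 23 GTPase-activating proteins, which end the active state, of the 14 COPII genes or of the 19 Arf-like GTPases was called by edgeR. At an unadjusted p under 0.05 these 4 lists held 1, 6, 0 and 5 genes, against 3941 of the 19754 tested genes. Over all 93 genes the median log2 difference was -0.02, against -0.48 over all tested genes.

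Copb2 encodes a subunit of the COPI coat that Arf1 recruits. It was at 0.626 and 1.05 CPM in the appetitive libraries, at 38.1 and 44.6 CPM in the aversive libraries, at 76.8, 96.1 and 104 CPM in mock and at 43.1, 97.1 and 99.0 CPM in neutral libraries. The appetitive values were below those of all other libraries, with a log2 difference of -5.62 from aversive (SE 1.01, edgeR adjusted p = 0.0287), and the adjusted p ran from 3.22e-10 to 0.711 over the alternatives.

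Ap1b1 encodes a large subunit of the AP-1 clathrin adaptor, which Arf1 brings to the trans-Golgi network. Its levels were 0.547 and 0.157 CPM in the appetitive libraries, 71.5 and 14.8 CPM in the aversive libraries, 77.0, 54.3 and 117 CPM in mock and 98.5, 13.2 and 96.8 CPM in neutral libraries. The difference from aversive was -6.95 (SE 1.53, edgeR adjusted p = 0.0484). Pip5k1c, a kinase that makes the membrane lipid PIP2 and is stimulated by Arf6, was at 0.704 and 0.210 CPM in the appetitive libraries, 101 and 69.1 CPM in the aversive libraries, 53.7, 43.2 and 98.7 CPM in mock and 20.5, 83.2 and 28.6 CPM in neutral libraries. Its difference from aversive was -7.55 (SE 1.37, edgeR adjusted p = 0.0300).

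These calls varied among the alternatives, which changed the libraries, scaling, filter or test, and the cause was not tested. An adjusted p under 0.05 was reached in 8 of 16 alternatives for Copb2, 4 of 16 for Ap1b1 and 9 of 16 for Pip5k1c, and 0 of the 3 genes was called with only the aversive and appetitive libraries in the fit, although the log2 differences stayed between -8.79 and -5.44.

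The comparisons of appetitive libraries with mock and neutral share the appetitive libraries with the above and are given beside it. For appetitive minus mock, the same-kit comparison, 3 of 93 were called, all lower, against 1.98% of all tested genes, of which 387 of 391 were lower. These were Copb2 (-6.78, edgeR adjusted p = 0.0296), Ap1b1 (-7.89, edgeR adjusted p = 0.0364) and Pip5k1c (-7.17, edgeR adjusted p = 0.0326). For appetitive minus neutral, 4 of 93 were called, all lower, against 6.17% of all tested genes, of which 1033 of 1218 were lower. The fourth was Gga2, a monomeric clathrin adaptor bound by Arf, named here after its values were seen (-7.29, SE 1.71, edgeR adjusted p = 0.0356). Gga2 was at 0.469 and 0.0524 CPM in the appetitive and at 0.701 and 0.361 CPM in the aversive libraries, against 8.85 to 17.4 CPM in mock and 18.9 to 68.5 CPM in neutral libraries. Unlike Arf2, it was thus low in the aversive libraries as well. In the other 3 comparisons, aversive minus neutral, aversive minus mock and neutral minus mock, edgeR called 0 of 93. At an unadjusted p under 0.05 by edgeR, 9, 4 and 6 passed in that order, against 3765, 1968 and 2658 of the 19754 tested genes. DESeq2 called 6, 3 and 5, against 9.84%, 4.26% and 4.64% of all genes it tested.

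**Figure D5:**
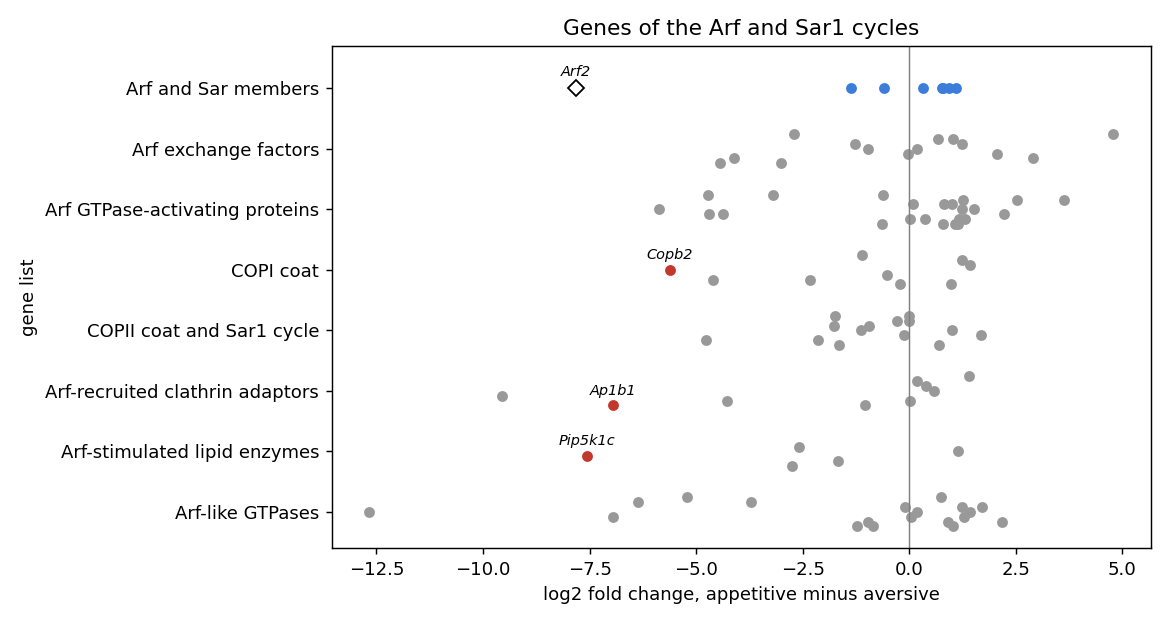
Log2 fold change, appetitive minus aversive, of each tested gene of the Arf and Sar1 cycles by list, with the Arf and Sar members at the top; a point is a gene and labelled points passed an adjusted p of 0.05. Copb2, Ap1b1 and Pip5k1c lie at -5.62, -6.95 and -7.55, and the 7 members other than Arf2 between -1.37 and 1.10.

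Genes of the coats included some that were near 0 in a single library. Sec23a, which binds Sar1 in the inner coat, had 3 counts (0.235 CPM) in appetitive 1 and 413 counts (21.6 CPM) in appetitive 2, and was at 33.5 to 100.4 CPM in the other libraries. Mia3, a cargo receptor of the endoplasmic reticulum exit sites, had 1 count in appetitive 1 and 458 in appetitive 2. Copz2, a COPI subunit, had 1 and 485 counts. These 3 genes were chosen after their values were seen.

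Markers of cell types differed among libraries beside these results. The summed level of 6 oligodendrocyte markers was 802074 and 80005 CPM in the appetitive, 409810 and 24507 in the aversive, 49821 to 365475 in the mock and 7438 to 35120 in the neutral libraries. The sum of 7 neuronal markers was 714 and 159 CPM in appetitive, 601 and 396 CPM in aversive, 156 to 262 CPM in mock and 51.2 to 72.4 CPM in neutral libraries. Snap25 alone made up 577 and 154 CPM of the appetitive sums, which therefore mostly show this gene. The median log2 difference of the 7 markers was -4.99 for appetitive minus aversive, -3.01 for appetitive minus mock and -1.48 for appetitive minus neutral. Of these 7, Gad1 (inhibitory neurons) had 0 counts in both appetitive libraries and in neutral 1 and 3, and Slc17a7 (excitatory neurons) was at 0.704 and 0.629 CPM in appetitive and at 0.0158, 0.0116 and 5.55 CPM in neutral libraries. Camk2a was at 106 and 0.262 CPM in the appetitive libraries. The sum of 6 astrocyte markers was 150.4 to 332 CPM in neutral libraries and 3071 to 14282 CPM in the others. For appetitive minus aversive, aversive minus mock and appetitive minus mock, 0 markers of the 7 lists were called by edgeR. For appetitive minus neutral, 3 of 6 astrocyte, 1 of 7 neuronal and 1 of 6 microglial markers were higher and 2 of 5 markers of choroid plexus and ependyma were lower. For neutral minus mock 3 astrocyte markers were lower, and for aversive minus neutral 1 astrocyte marker was higher. The part of cell make-up in the Arf2 difference and in the calls among partners was not tested.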

How the data were processed

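The authors mapped the first 40 bases of each read with STAR to mm10 and counted reads per Ensembl gene with featureCounts, without strand. They deposited these unnormalized counts for 10 libraries; versions are not given in the sources used here. Groups came from the sample labels. The members, gene lists and tests were chosen with earlier results of these data known. The counts went through edgeR 4.0.16 (R 4.3.3): filterByExpr kept 19754 genes, TMM factors ran from 0.48 to 1.45, and all 10 libraries entered a single quasi-likelihood fit by group (common dispersion 1.49). P-values are two-sided and Benjamini-Hochberg adjusted over all tested genes, and genes were called at an adjusted p under 0.05. Standard errors came from the F statistics. DESeq2 1.42.0 was an alternative. Positions, exon lengths and coding sequences came from GENCODE M21, which held 53274 of the 53379 gene identifiers. Named were all members, the listed genes called in appetitive minus aversive or in either comparison of these groups with mock (at most 4 a list) and the 5 genes most correlated with Arf2. The code was tested on simulated counts.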

Additional observations from a re-analysis of the deposited data

How the results depend on the processing

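None (0) of the 7 members other than Arf2 was called by edgeR or DESeq2 in any of the 6 comparisons under any of the 17 alternatives, and the log2 difference of Arf2 for appetitive minus aversive stayed between -8.44 and -7.59 where Arf2 passed the filter. Counts of called genes among the 93 partners moved, and so did the share of all tested genes called in the same setting, given in brackets. For appetitive minus aversive (3 called) they were 5 with no filter on low counts, 0 with at least 10 counts in every library, 17 with DESeq2, 0 with only the groups compared and 0 with a replicate block, and 0 to 11 when single libraries were left out (0 without any mock library, neutral 1 or neutral 3, 1 without neutral 2, 7 without appetitive 1 and 11 without appetitive 2). For appetitive minus neutral (4) they were 9, 0, 25, 0 and 0 in the same order, and 0 to 21 with single libraries left out. For appetitive minus mock (3) they were 0 with at least 10 counts, 22 with DESeq2, 12 with only the groups compared and 0 with the replicate block, and 0 to 13 with single libraries left out (0 without any mock or neutral library, 13 without appetitive 2). For aversive minus neutral (0, 0.0405%) the counts were 2 with no filter (2.45%), 1 with at least 10 counts (0.88%) and 6 with DESeq2 (9.84%). They also moved with single libraries left out. DESeq2 called 3 for aversive minus mock (4.26%) and 5 for neutral minus mock (4.64%), both 0 by edgeR, and no filter gave 1 for the latter (1.47%). The cause was not tested, except that at least 10 counts in every library left Arf2, Copb2, Ap1b1 and Pip5k1c out of the test. Over all genes, appetitive minus aversive gave 356 calls by edgeR, 3948 by DESeq2, 1270 with no filter, 9 with at least 10 counts, 0 with only the groups compared and 0 with the replicate block.

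Replicate numbers were not shown to pair the libraries: deviations from group means correlated by -0.04 to 0.16 between same-numbered libraries (12 pairs) and by -0.16 to 0.12 between others (25 pairs), and aversive and appetitive libraries share only number 1. Deviations within a group cancel out, so these ranges are linked and cannot decide whether the numbers pair the libraries. With 3 and 8 counts of Arf2 in the appetitive libraries, the intervals given cover counting error of these counts only. They leave out the spread between libraries, the scaling and the choice of Arf2 by its values, so the size of its difference is less certain than they show.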
